A study of Mus musculus with 35 samples.

Results

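The 10 genes of MHC class I antigen presentation followed across the arrays were the light chain B2m, the heavy chains H2-K1, H2-D1 and H2-T23, the peptide transporter subunits Tap1 and Tap2, the loading factor Tapbp, and the immunoproteasome subunits Psmb8, Psmb9 and Psmb10. They were taken by name, as every probe whose gene name in the scanner files was 1 of these 10, out of 27962 gene names on the array, and the rule uses no measured value. The 10 genes had 17 probes, and all 10 passed the filter on dim probes. A gene with several probes is given by its probe with the highest mean over the clones and ES arrays, and other probes are given where they change a count or a position against the clones.

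The series compared induced pluripotent stem (iPS) clones made from different cells of the mouse. All source cells came from 6-week-old mice carrying a Nanog-GFP-IRES-Puro reporter, so the clones and the primary cells share that allele. The sources were PaS cells, bone marrow cells sorted as CD45-, Ter119-, PDGFRa+ and Sca-1+, OP cells, the osteo-progenitors sorted from the same marrow as CD45-, Ter119-, PDGFRa- and Sca-1-, and TTF, tail tip fibroblasts. Retroviruses for Oct3/4, Sox2 and Klf4, with c-Myc (4F) or without it (3F), and for the fluorescent protein DsRed were used, and colonies with GFP and without DsRed were picked onto SNL feeder cells and kept in puromycin. Each of the 6 groups, 4F-PaS-iPS, 3F-PaS-iPS, 4F-OP-iPS, 3F-OP-iPS, 4F-TTF-iPS and 3F-TTF-iPS, held 5 clones with 1 array each, and each of the embryonic stem (ES) lines EB-3 and RF8 and each primary source had 1 array. Whether clones of a group were sister colonies is not given, so p-values measure only the spread between these clones and, since the fit also held them as a group, between the 2 ES arrays.

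Class I molecules display peptides from inside the cell to CD8 T cells and are read by natural killer cells. Proteasomes cut proteins into peptides, and the interferon-inducible subunits Psmb8, Psmb9 and Psmb10 replace their constitutive counterparts to form the immunoproteasome. Tap1 and Tap2 pair to carry the peptides into the endoplasmic reticulum, Tapbp (tapasin) holds empty class I molecules at the transporter, and B2m is needed for the heavy chains to fold and reach the surface. Undifferentiated mouse ES cells are known for low class I expression, and interferon raises the genes of the pathway together.

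The 5 promoter windows below are shown because the members' levels are compared by array in the rest of the text and these stretches hold letters known from class I regulation. They come from RefSeq on GRCm38.p6, surround the gene's start as the promoter table takes it, and are written 5′ to 3′ on the strand of the gene. For H2-K1 the table holds several windows, of which the first is shown, and it lies inside the outer end of the annotated gene. Capitals mark matches, on either strand, to GAAANNGAA (the core of the interferon-stimulated response element), TTCNNNGAA (the interferon-gamma activation site), GGGANTNCC (the kappa-B core) and TGACG (a cyclic-AMP-response-like element of class I promoters).
B2m, chr2:122147437-122147736, plus strand: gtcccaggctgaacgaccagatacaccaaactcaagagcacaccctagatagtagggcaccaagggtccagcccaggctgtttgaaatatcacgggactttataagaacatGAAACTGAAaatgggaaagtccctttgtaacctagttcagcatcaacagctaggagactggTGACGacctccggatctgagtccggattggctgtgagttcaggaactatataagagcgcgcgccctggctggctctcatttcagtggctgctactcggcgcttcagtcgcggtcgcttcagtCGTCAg
H2-K1, chr17:34000298-34000597, minus strand: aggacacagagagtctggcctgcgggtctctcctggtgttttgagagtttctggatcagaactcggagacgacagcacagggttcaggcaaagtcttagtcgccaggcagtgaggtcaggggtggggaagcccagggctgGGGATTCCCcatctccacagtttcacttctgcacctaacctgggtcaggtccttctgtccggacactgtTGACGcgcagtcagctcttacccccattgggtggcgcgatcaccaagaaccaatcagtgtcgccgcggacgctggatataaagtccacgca
H2-D1, chr17:35262844-35263143, plus strand: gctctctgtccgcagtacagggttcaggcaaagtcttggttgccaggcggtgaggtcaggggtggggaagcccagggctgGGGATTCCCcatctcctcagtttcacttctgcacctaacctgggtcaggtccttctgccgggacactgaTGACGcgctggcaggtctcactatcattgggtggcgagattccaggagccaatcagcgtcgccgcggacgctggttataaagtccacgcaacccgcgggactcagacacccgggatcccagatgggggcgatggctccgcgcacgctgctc
Tap1, chr17:34187306-34187605, plus strand: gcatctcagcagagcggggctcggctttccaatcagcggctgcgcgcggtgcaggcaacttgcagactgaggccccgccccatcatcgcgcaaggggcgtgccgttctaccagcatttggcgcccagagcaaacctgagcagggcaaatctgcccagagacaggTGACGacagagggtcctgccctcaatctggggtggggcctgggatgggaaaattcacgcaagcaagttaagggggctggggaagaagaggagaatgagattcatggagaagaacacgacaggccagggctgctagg
Psmb8, chr17:34197945-34198244, plus strand: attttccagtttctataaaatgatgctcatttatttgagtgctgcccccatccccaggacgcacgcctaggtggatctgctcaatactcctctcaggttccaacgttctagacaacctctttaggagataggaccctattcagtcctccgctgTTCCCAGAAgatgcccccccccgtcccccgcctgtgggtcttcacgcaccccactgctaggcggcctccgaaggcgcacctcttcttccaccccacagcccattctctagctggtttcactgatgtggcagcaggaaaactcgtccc
RefSeq gave a window for 9 of the 10 members, and Tap2 had none. GAAANNGAA was found in 2 of the 9 windows, those of B2m (139 bases before the start) and H2-T23, against 8.56% of 32851 windows of all genes. TTCNNNGAA was found in 1, that of Psmb8 (97 bases before the start), against 8.30%. GGGANTNCC was found in 2, those of H2-K1 and H2-D1, against 3.95%, and in both the match was GGGATTCCC, which reads on both strands. TGACG was found in 5, those of B2m, H2-K1, H2-D1, Psmb9 and Tap1, against 20.8%. The windows of H2-K1 and H2-D1 had 176 of 240 bases in common (73.3%) in their best ungapped alignment. Psmb9 and Tap1 lie head to head, 225 bases apart, and share 275 bases of their windows, so their TGACG is 1 stretch of DNA counted under both genes. Psmb9, Tap1, Psmb8 and Tap2 lie within 34.3 kb, and 8 of the 10 members are on chromosome 17. These matches describe letters only, since no binding was measured.

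The array's 60-base probes are shown for the gene that passed the test below and for the closely related heavy chains H2-D1 and H2-T23, because probes for similar genes can take up each other's RNA.
Psmb8, probe 1: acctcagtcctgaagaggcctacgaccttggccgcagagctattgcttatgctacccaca
Psmb8, probe 2: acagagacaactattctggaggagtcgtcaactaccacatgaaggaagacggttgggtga
H2-D1, probe 1: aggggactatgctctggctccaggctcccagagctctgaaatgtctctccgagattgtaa
H2-T23: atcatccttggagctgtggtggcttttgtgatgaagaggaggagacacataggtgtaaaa
Per the scanner files, which place probes on build mm7, the Psmb8 probes lie at chr17:32280668-32280727 and, over an exon junction, chr17:32280725-32281049, both on the plus strand. The H2-D1 probe spans chr17:33361850-33362082 and the H2-T23 probe chr17:34134435-34134671. Any 2 of the probes for H2-K1, H2-D1 and H2-T23 shared at most 23 of 60 bases in their best ungapped alignment. Probes were not compared with the transcripts of the other genes, so uptake of related RNA was not tested. The files list other class I transcripts beside the H2-D1 probe, and the second H2-D1 probe is described there as a thymus-leukemia antigen, so values under H2-D1 may hold RNA of related genes.

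Levels below are log2 of the deposited processed signal over the 75th percentile of the same array, so 0 is that percentile, and they are compared between arrays for 1 probe at a time and never between genes. Over the 35 arrays the 30 clones were hybridised on 8 slides in 1 scanning session, EB-3 and the primary cells on another slide in another session, and RF8 on a slide and in a session of its own, each session with its own version of the scanner software, so the ES lines and primary cells cannot be told apart from their session when set against the clones. On the clone arrays 56.6% to 65.7% of gene probes were well above background. Markers of undifferentiated cells (7 genes) summed to between 1.24 and 84.1 times the 75th percentile in the clones, to 262 in EB-3 and 141 in RF8, and to at most 0.0969 in the primary cells, and the lowest clone was 4F-OP-iPS #2. Markers of mesenchymal cells (18 genes), which feeder cells also express, summed to between 66.8 and 748 in the clones (median 174), to 12.6 in EB-3 with 11 of 18 genes above background, to 92.3 in RF8, and to 1191, 1335 and 381 in primary PaS, OP and TTF. Markers of haematopoietic cells (11 genes) summed to between 0.703 and 2.15 in the clones, 2.17 in EB-3, 2.78 in RF8, 6.13 in primary PaS and 17.8 in primary OP, but to 632 in primary TTF. Ptprc (CD45), the common leukocyte antigen, was not well above background on any clone array and was at 4.14 on the primary TTF array, where 11 of 11 haematopoietic markers were above background, so haematopoietic transcripts were present there beside those of fibroblasts. The primary OP array, sorted against PDGFRa and Sca-1, held Pdgfra at 1.58 and Ly6a (Sca-1) at 3.54, against 0.98 and 5.58 in primary PaS, so both transcripts were present there. The paper expanded sorted cells in culture before transduction, and does not state whether the RNA of the primary arrays was taken before or after this.

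Among the 30 clones the heavy chains varied less than most probes did, and B2m about as much. B2m ran from 3.27 in 4F-OP-iPS #5 to 5.11 in 4F-PaS-iPS #1, with a median of 4.07 and a mean of 4.11 ± 0.51 (SD, n = 30). H2-K1, a classical heavy chain, ran from 3.75 in 3F-OP-iPS #4 to 5.18 in 4F-TTF-iPS #5, with a mean of 4.51 ± 0.31. Its SD lay at the 23.4th percentile of all tested probes, that of H2-T23 at the 26.9th, that of H2-D1 at the 39.1th and that of B2m at the 54.6th. H2-D1, another classical heavy chain, had a mean of 3.81 ± 0.40 (2.86 to 4.59), and H2-T23, which encodes the non-classical Qa-1 antigen, a mean of 3.64 ± 0.33 (2.66 to 4.28). The same clone, 3F-OP-iPS #4, was the lowest for all 3 heavy chains. The 6 groups accounted for 5.72% of the variance of B2m, 5.78% of that of H2-K1, 15.1% of that of H2-T23 and 19.9% of that of H2-D1.

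**Figure D1:**
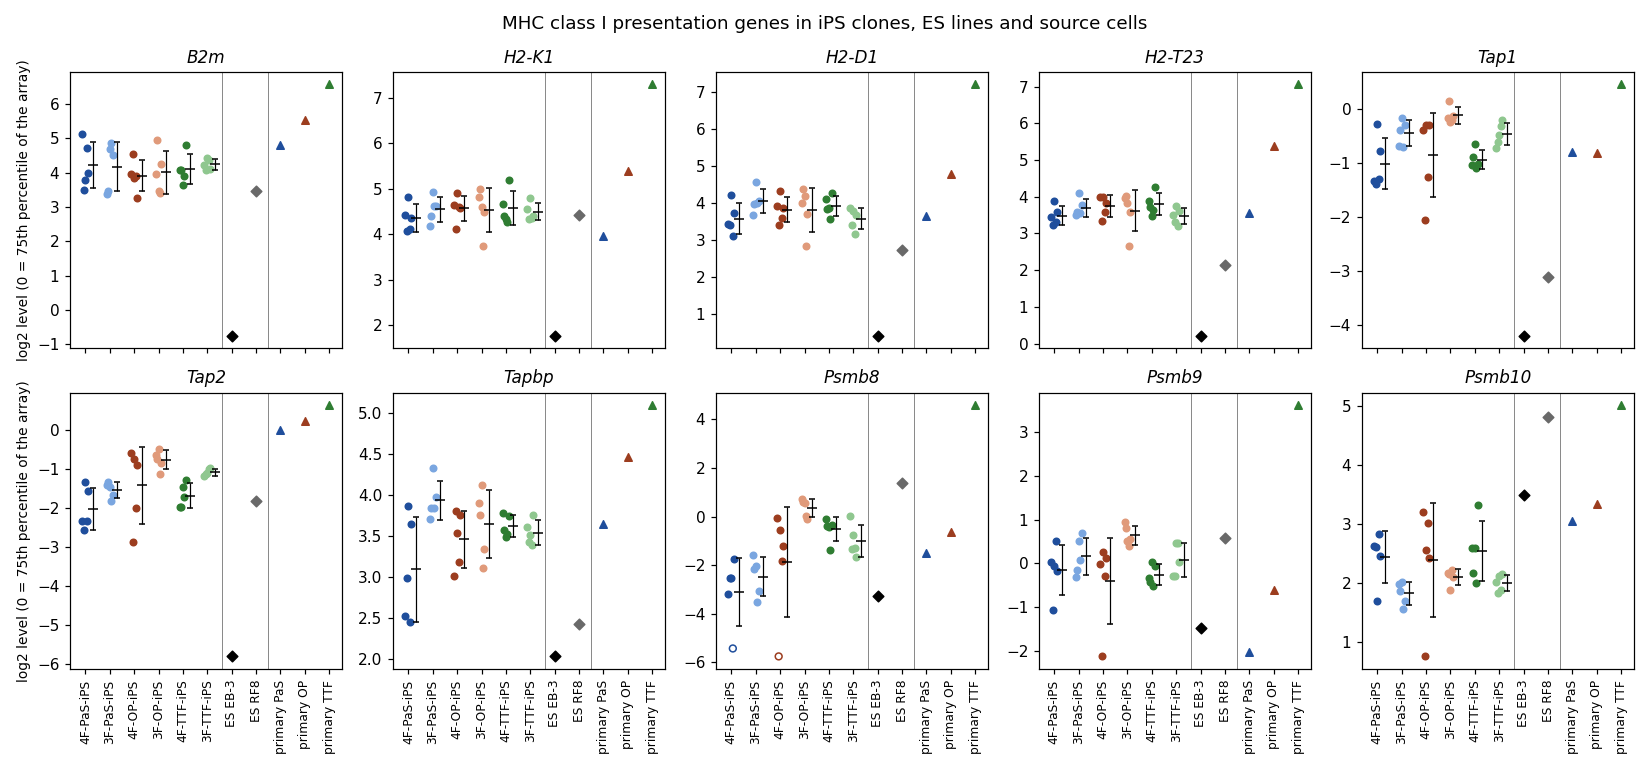
Log2 levels of the 10 genes (vertical axis, 0 is the 75th percentile of the array), 1 panel for each gene, by group along the horizontal axis. Points are the 5 clones of each group with their mean and SD beside them, and the ES and primary arrays are single points. The clones stand apart by group most for Psmb8 (54.7% of the variance) and least for B2m (5.72%).

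Transporter, loading and proteasome genes had more of their variance between groups, from 25.3% for Psmb10 to 54.7% for Psmb8. Part of the variance falls between 6 groups of 5 clones by chance, and none of these shares was set against those of all tested probes. Tap1 had a mean of -0.64 ± 0.49 over the 30 clones, from -2.06 to 0.15, and Tap2 a mean of -1.42 ± 0.61, from -2.87 to -0.49, with 43.4% and 45.9% of the variance between groups. Tapbp had a mean of 3.55 ± 0.42, with its lowest value, 2.46, in 4F-PaS-iPS #4 and its highest, 4.32, in 3F-PaS-iPS #3. Psmb9 had a mean of 0.01 ± 0.60 and Psmb10 of 2.22 ± 0.52. Psmb8 had a mean of -1.43 ± 1.62, an SD at the 96.8th percentile of all tested probes. The clone 4F-OP-iPS #2, which had the lowest sums of both undifferentiated and mesenchymal markers, was also the lowest of the 30 for 5 members, Tap1, Tap2, Psmb8, Psmb9 and Psmb10.

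The first question was whether clones differ by the cell they came from, tested with limma over 27623 probes. A probe was called where it changed 2-fold or more with an adjusted p (Benjamini-Hochberg, over all tested probes) below 0.05. Psmb8, the immunoproteasome subunit LMP7, was lower in PaS-derived than in OP-derived clones and was the 1 member called among 10. Of all tested probes 1.60% were called in that comparison. The 4F-PaS-iPS clones read -3.18, -2.54, -2.54, -5.43 and -1.76 for Psmb8, and the 3F-PaS-iPS clones -1.59, -2.16, -2.02, -3.53 and -3.07. The 4F-OP-iPS clones read -0.06, -5.76, -0.55, -1.82 and -1.21, and the 3F-OP-iPS clones 0.72, 0.61, 0.57, 0.04 and -0.11. All 3F-OP-iPS clones lay above all 10 PaS-derived clones, whereas the 4F-OP-iPS clones overlapped them through #2 and #4. The lowest readings, of 4F-PaS-iPS #4 and 4F-OP-iPS #2, were not well above background, alone among the values of the 10 genes by the probes used. The mean was -2.78 ± 1.12 (SD, n = 10) in PaS-derived and -0.76 ± 1.94 (n = 10) in OP-derived clones, a difference of -2.03 on the log2 scale (4.07-fold, SE 0.58, 95% interval -3.21 to -0.84, limma adjusted p = 0.0459).

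This call was close to its threshold. It was kept in 5 of 20 fits that left out 1 of the PaS- or OP-derived clones and lost in the other 15, between a difference of -2.51 without 4F-OP-iPS #2 (limma adjusted p = 0.0015) and -1.73 without 4F-PaS-iPS #4 (limma adjusted p = 0.0845). With the ES arrays left out of the fit the limma adjusted p was 0.0207. With the normexp background correction the difference was -1.39 (limma adjusted p = 0.0419). With slide as a fixed term the difference was -2.05 (limma adjusted p = 0.1825), and with slide as a random block it was -1.90 (limma adjusted p = 0.0703). Within a slide, OP-derived minus PaS-derived clones came to 1.35 (3 against 1), -0.76 (2 against 2) and 3.96 (2 against 2), so the direction turned on the slide that held 4F-OP-iPS #2. The second Psmb8 probe, which followed the first over the clones (r = 0.984, n = 30), gave -1.95 (limma adjusted p = 0.0771). Undifferentiated markers moved in the same comparison, with Zfp42 (Rex1) called higher in PaS-derived clones (1.81, limma adjusted p = 0.0442), 5 of 7 at an unadjusted limma p under 0.05 and a median difference of 1.81, beside 0.03 over all tested probes. The Zfp42 call was lost with slide as a fixed term (2.23, limma adjusted p = 0.117) and kept with slide as a random block (limma adjusted p = 0.0451). Of 18 mesenchymal markers 0 were called by limma and 1 had an unadjusted p under 0.05. The mesenchymal marker sum was 89.6 to 213 in PaS-derived and 66.8 to 748 in OP-derived clones, and Psmb8 had r = 0.50 with the log2 of that sum over the 30 clones (0.43 without the 2 farthest). Their part in the result was not tested.

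**Figure D2:**
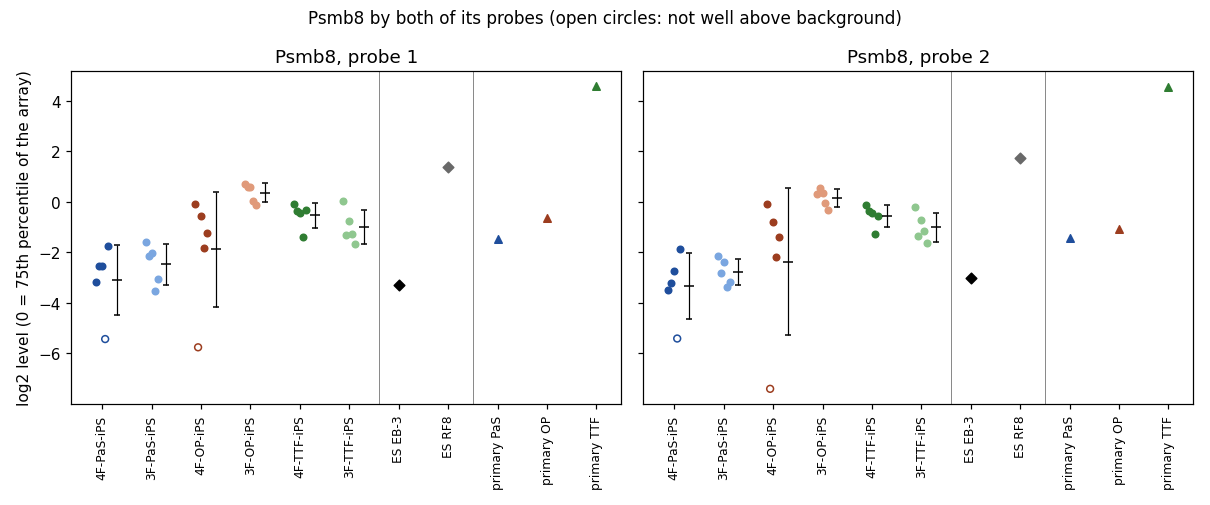
Log2 level of Psmb8 (vertical axis, 0 is the 75th percentile of the array) by group for each of its 2 probes. Circles are clones with the group's mean and SD beside them, open where not well above background, diamonds the ES arrays and triangles the primary arrays. The 3F-OP-iPS clones sit between -0.11 and 0.72 on the first probe, above all PaS-derived clones.

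The TTF-derived clones read -0.09, -0.38, -0.45, -1.38 and -0.33 (4F) and 0.04, -1.32, -0.74, -1.28 and -1.67 (3F) for Psmb8, a mean of -0.76 ± 0.61 (n = 10). PaS-derived clones were at -2.02 relative to them (SE 0.58, 95% interval -3.20 to -0.84, limma adjusted p = 0.0733), which was not called. OP- and TTF-derived clones had a difference of 0.00 with an interval of -1.18 to 1.19. Of the 10 members 0 were called between PaS- and TTF-derived clones, where 0.500% of all probes were called, and only Psmb8 had an unadjusted limma p under 0.05. Between OP- and TTF-derived clones 0 were called, against 0.0217% of all probes, and 0 had an unadjusted limma p under 0.05. In the 6 comparisons of groups 10.2% to 26.1% of all tested probes passed that unadjusted threshold, with 21.5% between PaS- and OP-derived clones. There Tap2 was the other member with an unadjusted p under 0.05, at -0.69 (SE 0.32, limma adjusted p = 0.2105).

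The intervals for the surface molecule's own chains were narrow. For PaS- minus OP-derived clones H2-K1 was at -0.10 (95% interval -0.54 to 0.35), H2-T23 at -0.09 (-0.47 to 0.30) and B2m at 0.24 (-0.46 to 0.95), and for H2-D1 the means of 3.83 ± 0.43 and 3.83 ± 0.46 gave an interval of -0.46 to 0.45. A 2-fold difference therefore lay outside the interval of each of these genes. Over the 10 members the median difference was -0.10 for PaS minus OP, beside 0.03 over all tested probes, -0.05 for PaS minus TTF, beside -0.01, and 0.03 for OP minus TTF, beside -0.02.

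The second question was whether leaving out c-Myc mattered. No slide held both 3F- and 4F-clones of the same source, so the clones of a source alone cannot tell the factors from the slide. Of the 10 members 0 were called between 3F- and 4F-clones of any source, against 0.0181% of all probes for PaS, 4.51% for OP and 5.77% for TTF. In OP-derived clones 3 members had an unadjusted limma p under 0.05, all with higher 3F values, where 24.6% of all tested probes passed that threshold and 55.1% of those were higher in 3F. Psmb9 was at 0.64 ± 0.22 in 3F- and -0.41 ± 0.98 in 4F-OP-iPS clones (difference 1.05, SE 0.37, limma adjusted p = 0.0749). Psmb8 differed by 2.24 (SE 0.81, limma adjusted p = 0.0839) and Tap1 by 0.73 (SE 0.27, limma adjusted p = 0.0856). For all 3 the lowest 4F clone was #2, and without it the differences were 0.62 for Psmb9, 1.28 for Psmb8 and 0.43 for Tap1 (limma adjusted p = 0.208 to 0.235). In PaS-derived clones Tapbp, between 3.70 and 4.32 in 3F and between 2.46 and 3.87 in 4F, differed by 0.84 (SE 0.23, limma adjusted p = 0.1294), and Tap1 by 0.57 (SE 0.27, limma adjusted p = 0.2741). In TTF-derived clones 0 members had an unadjusted limma p under 0.05 by the probes used, while the second H2-K1 probe was at -0.61 (unadjusted p under 0.05, limma adjusted p = 0.1571). The median 3F minus 4F difference of the members was 0.39 in PaS-, 0.14 in OP- and -0.08 in TTF-derived clones, beside 0.00, 0.02 and 0.04 over all tested probes.

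Whether the 3F minus 4F difference itself depended on the source was tested with the interaction terms. Of the 10 members 0 were called for PaS minus OP (0.648% of all probes), 0 for PaS minus TTF (0.583%) and 0 for OP minus TTF (0% of all probes). The unadjusted limma p was under 0.05 for 0, 1 (Tapbp) and 1 (Psmb8) of the members in that order, and for the second H2-K1 probe in PaS minus TTF (1.06, limma adjusted p = 0.1427). Of all tested probes 18.9%, 19.3% and 3.72% passed that unadjusted threshold, in the same order. In the 3F-OP-iPS clones 3 of 18 mesenchymal markers, Loxl1, Acta2 and Tagln, were called higher than in 4F-OP-iPS clones, where 4.51% of all probes were called, and the marker sum was 138 to 748 against 66.8 to 209. Of the 7 undifferentiated markers Zfp42 was called higher there (2.41, limma adjusted p = 0.0382), 4 had an unadjusted p under 0.05 and the median difference was 2.41. With slide as a random block these calls of Zfp42, Loxl1, Acta2 and Tagln were lost (limma adjusted p = 0.0865 to 0.172). In PaS-derived clones the median 3F minus 4F difference was -1.10 over the undifferentiated and 0.40 over the mesenchymal markers. In TTF-derived clones these medians were 1.05 and 0.43, and in both sources 0 of these markers were called. Over the 30 clones Tap1 had r = 0.61, Psmb9 r = 0.52 and Tap2 r = 0.52 with the log2 of the mesenchymal marker sum, whereas H2-K1 had r = 0.21, B2m r = 0.13 and H2-T23 r = -0.05. The part of these markers in the 3F and 4F values was not tested.

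**Figure D3:**
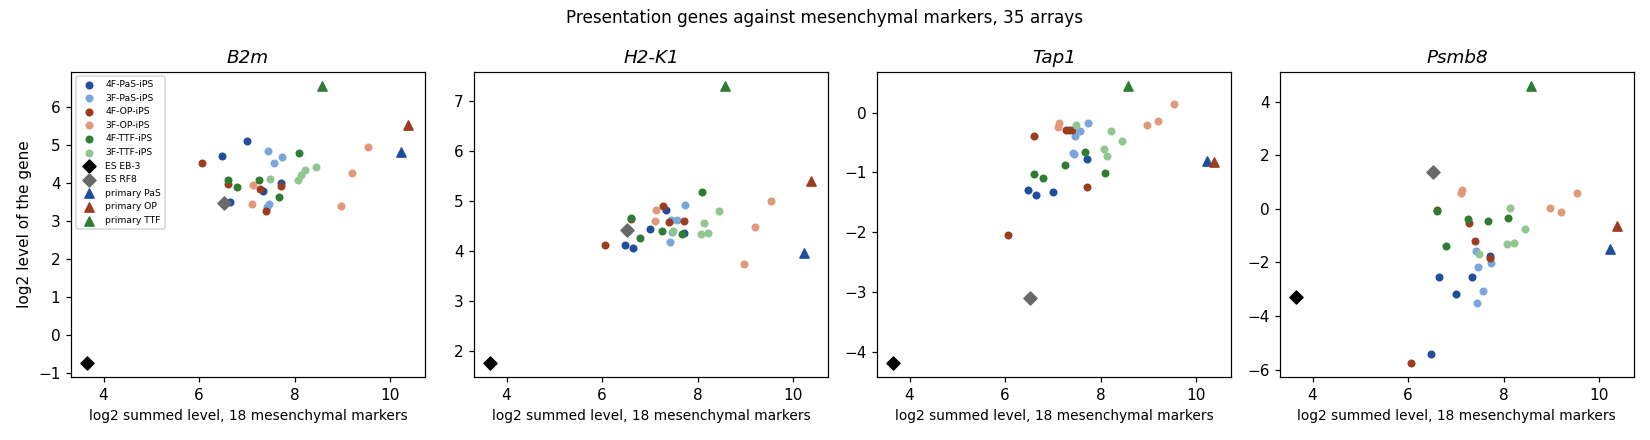
Log2 levels of B2m, H2-K1, Tap1 and Psmb8 (vertical axis, 0 is the 75th percentile of the array) against the log2 of the summed level of 18 mesenchymal markers (horizontal axis). Points are the 30 clones and the single ES and primary arrays. Over the clones alone the relation is closest for Tap1 (r = 0.61) and least close for B2m (r = 0.13).

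The members did not all vary together over the clones. The 3 heavy chains formed 1 block, with r = 0.90 for H2-K1 with H2-T23 (0.93 within groups), 0.90 for H2-D1 with H2-T23 and 0.85 for H2-K1 with H2-D1 (n = 30 clones each). The neighbours Psmb9, Tap1, Psmb8 and Tap2 formed another, with a median r of 0.70 over their 6 pairs (0.44 to 0.87), of which Tap1 with Tap2 was the highest. Each pair was also taken without the 2 clones farthest from the median of 1 gene of the pair. In the 12 pairs of a neighbour with a heavy chain, that gene was the heavy chain. The median r of the neighbours was then 0.52, and that of the 12 pairs went from 0.36 to 0.51. The heavy chains kept r of 0.81 to 0.87 with each other. These medians need not be over the same clones, so they do not show whether the blocks merge. Psmb9 and Tap1, which share the promoter stretch shown above, had r = 0.78. B2m stood apart from both, with r from 0.12 to 0.37 with the heavy chains and from -0.32 to 0.15 with the 4 neighbours. Over all 45 pairs the median r was 0.33, from -0.50 (Tapbp with Psmb10) to 0.90. These are descriptions over 30 arrays that share 8 slides and, for the heavy chains, partly alike sequences.

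**Figure D4:**
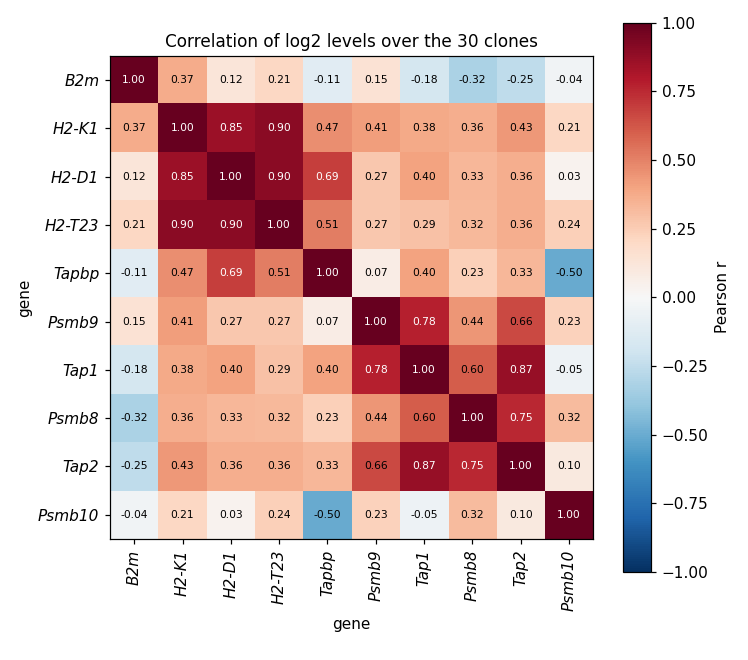
Pearson correlation of log2 levels between members over the 30 clones, with both axes listing the 10 genes and the colour and number giving r. The heavy chains reach 0.85 to 0.90 with each other, and Tap1 and Tap2 reach 0.87.

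Of 20278 other probes, those most like the mean of the members over the 30 clones were mostly class I genes. The mean itself followed the heavy chains most (r = 0.80 to 0.87) and B2m (0.15) and Psmb10 (0.25) least, so the list mainly restates the heavy-chain block. H2-Q5 had r = 0.87, H2-Q2 0.86, H2-T22 0.85, H2-T10 0.84 and H2-Q1 0.82, along with a probe for a class I antigen named LOC56628 (0.86) and one for a predicted H2-T23 transcript (0.84). The others named were Il13ra1 (0.86), a subunit of an interleukin receptor, Birc3 (0.83), an inhibitor of apoptosis and target of NF-kappaB, and 1 probe without a gene (0.83).

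The ES line EB-3 held most of the pathway below every clone. On its single array 7 of 10 members lay below all 30 clones and 1 above, where 22.0% of all tested probes lay below and 25.8% above. B2m was at -0.75, against 3.27 to 5.11 in the clones, which is 29.0-fold below the clone mean, and its other probes gave 32.7-fold and 8.79-fold. Tap2 was at -5.81, 20.9-fold below the clone mean, and Tap1 at -4.19, 11.7-fold below. H2-K1 was at 1.77 (6.70-fold below), H2-D1 at 0.43 (10.4-fold), H2-T23 at 0.21 (-3.42 from the clone mean on the log2 scale) and Tapbp at 2.04 (2.86-fold). Of the immunoproteasome subunits, Psmb8, at -3.29, lay above 3 clones (3.61-fold below the clone mean) and Psmb9, at -1.48, above 1 (2.80-fold below), while Psmb10, at 3.49, lay above all 30 (2.41-fold above the clone mean). Tap1 and Psmb9, with their shared promoter stretch, thus lay at -3.55 and -1.49 from their clone means. The mesenchymal sum on this array, 12.6, was below that of every clone and RF8, and its part in these values was not tested.

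RF8 was higher than EB-3 in all 10 members, against 52.2% of all tested probes. The difference was 4.66 for Psmb8 (25.3-fold), 4.21 for B2m (18.6-fold) and 4.00 for Tap2 (16.0-fold), at the 98.4th, 97.9th and 97.5th percentile of the absolute difference over tested probes, while for Tap1 it was 1.08 (68.4th percentile) and for Tapbp 0.40 (30.8th). On the RF8 array 4 members, H2-D1 (2.74), H2-T23 (2.14), Tap1 (-3.11) and Tapbp (2.44), lay below all 30 clones, against 18.4% of all tested probes, and 2, Psmb8 (1.38) and Psmb10 (4.82), lay above all, against 22.6%. B2m, at 3.47, and H2-K1, at 4.42, were within the clones, above 5 and 13 of the 30, as were Tap2, at -1.81, above 8, and Psmb9, at 0.57, above 27. Psmb8 was 7.01-fold and Psmb10 6.04-fold above the clone mean. The ES lines had 1 array each, in different sessions, so a difference between the lines cannot be told apart from one between sessions, and none of these comparisons has a replicate check. Probes disagreed for some members here. By the other H2-K1 probes RF8 lay below all 30 clones (0.12 against a lowest clone of 0.79) and above 2 of them. By the second B2m probe, which followed the first over the clones (r = 0.957), RF8 lay below all 30 (2.06 against 2.13), and by the third, at another place in the gene, above 29.

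**Figure D5:**
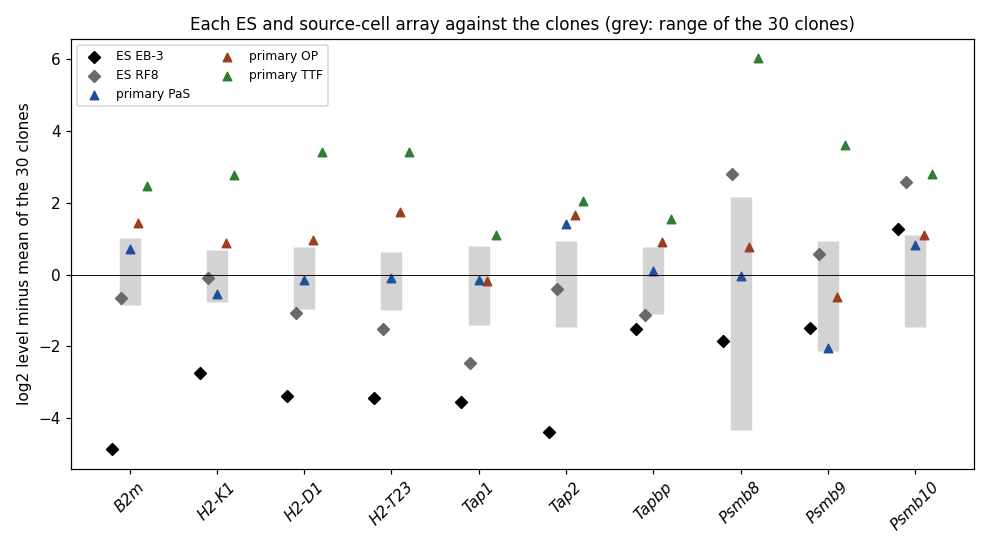
Log2 level of each member on the ES and primary arrays minus its mean over the 30 clones (0 is the clone mean), by gene and array, with the range of the clones shown for each gene. EB-3 lies below the clones for 7 genes and primary TTF above them for 10.

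Of the primary cells, TTF held all 10 members above all 30 clones, against 19.7% of all tested probes. H2-D1 was at 7.22, against 2.86 to 4.59 in the clones (10.6-fold above the mean), H2-K1 at 7.29 and B2m at 6.57. Psmb8 was at 4.59, 65.0-fold above the clone mean, and Psmb9 at 3.62, 12.2-fold above. This is the array on which the haematopoietic markers summed to 632, and their part in these levels was not tested. The clones derived from TTF did not share these levels, with Psmb8 between -1.67 and 0.04 and H2-D1 between 3.17 and 4.28.

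Primary OP cells had 7 members above all 30 clones, against 21.0% of all tested probes, and the other 3 within their range. This count rests on the probes used, since B2m lay within the clones by both of its other probes, above 29 and 22 of the 30, and Tapbp by its other probe, above 25. H2-T23 was at 5.37, B2m at 5.55, H2-K1 at 5.40 and H2-D1 at 4.78, whereas Tap1 (-0.83), Psmb8 (-0.65) and Psmb9 (-0.61) lay within the clones. Primary PaS cells had 1 member above, Tap2 at -0.01, against 16.7% of all tested probes. Their other 9 members lay within the range of the clones, with H2-K1 at 3.96, H2-D1 at 3.66, B2m at 4.82 and Psmb8 at -1.48. On the slide that EB-3 shared with the primary cells, every primary array was above EB-3 for 8 of the 10 members, against 29.8% of all tested probes, by 1.61 for Tapbp to 5.80 for Tap2 at the least. The exceptions were Psmb9 and Psmb10, for which the lowest primary array was 0.54 and 0.43 below EB-3.

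Other genes of the pathway, listed by function, were counted the same way. Of 10 other class I heavy chains tested, 8 were below all clones in EB-3 (22.0% of all tested probes), 4 in RF8 (18.4%), and 8 and 9 were above all clones in primary OP (21.0%) and TTF (19.7%). H2-T22, for one, was at -4.18 in EB-3 and 0.55 ± 0.37 in the clones. As probes for similar genes can take up each other's RNA, these 10 probes need not be 10 separate readings. The median array minus clone mean for EB-3 was -3.06 over the members and -2.63 over these heavy chains, beside 0.15 over all tested probes. Of 6 loading and folding genes tested, 4 were below all clones in EB-3 and, in RF8, 1 below and 2 above (22.6% of all tested probes). Those below in EB-3 were the chaperones Calr and Hspa5, the disulfide isomerase Pdia3 and the peptide-trimming protease Arts1. Of 7 genes of the constitutive proteasome and its activators 0 were below all clones in EB-3 and 4 above (25.8% of all tested probes). These were Psmb5 and Psmb7, the counterparts of Psmb8 and Psmb10, the activator Psme4 and the assembly factor Pomp. In RF8 0 of the 7 were below and 2, Psmb6 and Psme4, above (22.6%). Of 14 regulators tested, 9 were below all clones in EB-3 and 1, Nfkb1, above, with both chains of the interferon-gamma receptor, Ifngr1 and Ifngr2, and the kinases Jak1 and Jak2 among those below. Nlrc5, the class I transactivator, had no probe by that name on the array. In RF8 6 of these 14 were below, again with Ifngr1, Ifngr2 and Jak1, and 2 above, Irf1 and Nfkb1.

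Few of these genes were called between groups of clones, where 0.0181% to 5.77% of all probes were called. Of the 6 loading and 7 constitutive proteasome genes 0 were called by limma in the 6 comparisons of groups, with 0 to 2 and 0 to 3 of them at an unadjusted p under 0.05. Changes under 2-fold passed the adjusted threshold for Calr, lower in 3F- than in 4F-TTF-iPS clones (-0.87, limma adjusted p = 0.0253), for the activator Psme1, lower in PaS- than in OP-derived clones (-0.27, limma adjusted p = 0.0430), and for Pomp, lower in 3F- than in 4F-clones of OP (-0.50, limma adjusted p = 0.0242) and TTF (-0.45, limma adjusted p = 0.0376). Without the 2-fold minimum, 2790 of 27623 tested probes passed between 3F- and 4F-clones of TTF. For OP 2237 passed, and between PaS- and OP-derived clones 1019. The changes of Calr, Psme1 and Pomp were not set against the slide terms. H2-Q8, a non-classical heavy chain, was lower in PaS- than in TTF-derived clones (-1.51, limma adjusted p = 0.0339) and lower in 3F- than in 4F-TTF-iPS clones (-1.90, limma adjusted p = 0.0172). Socs1, a feedback inhibitor of interferon signalling, was higher in PaS- than in OP-derived clones (1.30, limma adjusted p = 0.0445), the comparison in which Psmb8 was lower, and higher in 3F- than in 4F-TTF-iPS clones (1.62, limma adjusted p = 0.0452). Of the class II genes, which serve CD4 T cells, H2-Eb1 was higher in 3F- than in 4F-clones of OP (1.87, limma adjusted p = 0.0407) and of TTF (2.13, limma adjusted p = 0.0187), and H2-DMa in 3F-OP-iPS clones (1.03, limma adjusted p = 0.0128). With slide as a random block each of these calls of H2-Q8, Socs1, H2-Eb1 and H2-DMa was lost (limma adjusted p = 0.0812 to 0.596). With slide as a fixed term, the 3F minus 4F difference in TTF-derived clones turned for Socs1, to -0.76, and for H2-Q8, to 0.83 (neither called by limma).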

How the data were processed

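RNA of 30 iPS clones, 2 ES lines and 3 primary cell sources was read on 1-colour Agilent arrays. The deposited scanner files give the authors' Feature Extraction intensity, background-subtracted, for each spot. A deposited series table on a log2 scale, per array scaled to the 75th percentile and centred to a median of 0 per probe, was used only as an alternative.

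Flagged spots (54 to 152 an array) were left out, spots of a probe averaged, and log2 intensity minus that of the array's 75th percentile taken. Of 41174 gene probes, 27623 were tested, each of them well above background throughout at least 1 group. 1 limma fit (3.58.1, R 4.3.3) held the 6 clone groups and ES, and p-values were Benjamini-Hochberg adjusted over all tested probes. On simulated data with 200 changed probes in PaS against OP, 92% (log2 change -2), 86% (1.5), 96% (2) and 98% (3) were recovered. The simulated noise was normal and independent between arrays, with no correlation within slides, so recovery under slide effects was not tested. ES and primary arrays were set beside the clones without a test.

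The members and lists were chosen with earlier results of these data known. The rule for named genes took the members, called genes of the lists and the 10 probes most correlated with the members' mean, and other genes of the lists and markers were named after their values were seen. Alternatives were normexp (offset 50), quantile normalization, the authors' table, no filter, slide terms, clones alone, a replicate block, other probes and leaving out clones. Same-numbered clones were not paired by the labels or the data (median r -0.000413 over 75 pairs).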

Additional observations from a re-analysis of the deposited data

Results flagged for a closer look

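In groups of 5 clones, 3 values stood apart from the other 4 by more than 0.71 of the group's range. Tap1 in 3F-OP-iPS #2 was the highest of its group, at 0.15 against -0.14 for the next clone (gap 0.720 of the range). Psmb8 in 4F-TTF-iPS #4 was the lowest of its group, at -1.38 against -0.45 (0.723). Psmb9 in 4F-OP-iPS #2 was the lowest of its group, at -2.13 against -0.29 (0.771). In all 60 groups of 5 clones were examined, and chance flags about 5% of such groups.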

How the results depend on the processing

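The count of members called between PaS- and OP-derived clones, 1 (Psmb8), fell to 0 without the filter on dim probes (limma adjusted p = 0.0653), with slide as a random block (consensus correlation 0.329), with slide as a fixed term and with replicate number as a block (limma adjusted p = 0.0524), and was 0 to 1 when 1 clone was left out. The count of 0 between PaS- and TTF-derived clones became 1 with the clones alone in the fit and without the 4 clones low in Sox2, Nanog and Gm397 (4F-OP-iPS #1, #2 and #3 and 4F-TTF-iPS #1). The count of 0 between 3F- and 4F-OP-iPS clones became 2 with the clones alone, and that between 3F- and 4F-PaS-iPS clones was 0 to 1, with 1 without 4F-PaS-iPS #3. The replicate block changed no other count of members. The slide as a fixed term could be fitted only for PaS against OP and for 3F against 4F TTF.

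Among all tested probes, 443 were called between PaS and OP but 163 with normexp and 124 with slide as a fixed term. Between PaS and TTF, 138 became 22 with normexp and 6 with slide as a random block. Between 3F and 4F, 1246 (OP) became 268 with normexp, 168 with slide as a random block and 62 without the 4 low clones, and 1595 (TTF) became 481, 7 and, with slide as a fixed term, 4. For PaS 5 became 177 with normexp, 3 with the clones alone and 0 with slide as a random block, with the replicate block and without the 4 low clones. Between OP and TTF, 6 became 2 with normexp, 3 with quantile normalization and with no filter, 0 with slide as a random block and 16 without the 4 low clones. For the interaction of PaS minus OP, 179 became 96 with no filter, 320 with the clones alone and 11 without the 4 low clones, and for PaS minus TTF 161 became 365, 285 and, with slide as a random block, 0. The cause was not tested.

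Other probes turned the sign of the clone median minus an array for B2m against RF8 (0.61 to -1.15) and primary PaS (-0.74 to 0.78) and for Tapbp against primary PaS (-0.03 to 0.55). The cause was not tested. The second H2-D1 probe was above background on only 8 of 35 arrays, RF8 but neither primary OP nor TTF among them, so its values against primary OP (-0.92 to 1.94) and primary TTF (-3.35 to 2.08) are at background and give no direction, while against RF8 (1.12 to -2.13) RF8 was above background and above all 30 clones. Single arrays of the ES lines and primary cells allow no test.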
